A study of Homo sapiens with 7 samples.

Results

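The DNA sites bound by ATF4 were set against those bound by MYC in cells whose MYC had been switched on for 8 hr. Within each factor, peaks that touched by 1 bp or more were joined, and a region was kept when both libraries of the factor had a peak in it. This gave 352 reproducible ATF4 regions out of 3149 merged ATF4 regions (11.2%) and 6313 reproducible MYC regions out of 24855 (25.4%), that is 6665 of 28004 regions in all. Of the 352 ATF4 regions, 65 overlapped a reproducible MYC region, and these are called shared regions below.

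All 4 libraries compared, from a series of 7 samples, came from DLD-1, an established line of human colon adenocarcinoma cells. The cells carried a retrovirus that expresses MycER, MYC fused to an estrogen receptor domain, and all 4 were treated with 500 nM 4-hydroxytamoxifen, the ligand that activates the fusion. Chromatin was immunoprecipitated with an antibody to ATF4 in 2 replicates and with an antibody to MYC in 2 replicates, and the bound DNA was sequenced (ChIP-seq). The groups therefore share genotype, treatment and time and differ in the antibody, so no value below measures an effect of MYC activation. MYC in cells without the ligand was not analysed here, endogenous MYC and MycER were not told apart, and the labels do not say whether replicates were separate cultures, so the spread between them may be technical.

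ATF4 is a basic leucine zipper protein whose translation rises in the integrated stress response. It binds DNA as a dimer, often with a C/EBP protein, at a composite C/EBP-ATF element, and it is known for driving genes of amino acid synthesis, amino acid import and tRNA charging. MYC binds DNA with its partner MAX at E-boxes, with CACGTG as the canonical form, and it is known for occupying promoters of ribosome biogenesis, translation and nucleotide synthesis genes.

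The lists differed in length and depth. ATF4 had 1270 peaks in replicate 1 and 2231 in replicate 2, and MYC had 8636 and 22532. Judged by the ratio of total to normalized tags, the replicate 1 libraries held 24.95 M (ATF4) and 21.04 M tags (MYC). Judged by the spacing of low values, the replicate 2 libraries held 49.75 and 50.1 M. Depth thus followed the replicate number, and values are given for each replicate. Replicate 1 of ATF4 stood apart in 1 respect, with 19.3% of its peaks on chromosome 8 against 4.24% to 8.73% in the other 3 lists. Levels below are the authors' normalized tag counts, which are tags per peak scaled to 10 M tags per library and averaged over all cells, so that fewer bound cells and weaker binding per cell cannot be told apart. Of the 65 shared regions, 59 lay outside chromosome 8, and without that chromosome the shared part of the ATF4 regions was 18.0%.

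The letters of the promoter windows that the regions touched differed between the factors. Promoter windows were taken from RefSeq (GRCh38.p14), which gave 22198 windows of 300 bases for 15842 genes, from 250 bases before a transcription start to 50 bases after its first base. The ATF4 motif searched was TGATGNAA, the C/EBP-ATF element in which N is any base, and the MYC motif was CACGTG, each on both strands. Reproducible ATF4 regions overlapped 19 windows, of which 13 (68.4%) held TGATGNAA, against 598 of all windows (2.69%) and 22 of the 941 windows overlapped by MYC (2.34%). CACGTG was in 214 of the 941 MYC windows (22.7%), in 2 of the 19 ATF4 windows (10.5%) and in 1851 of all windows (8.34%). Only 4 windows were overlapped by both factors, and all 4 held TGATGNAA while 1 held CACGTG. The cyclic AMP element TGACGTCA, also a site of ATF-family dimers, was in 1 of the 19 ATF4 windows (5.26%), in 33 MYC windows (3.51%) and in 2.26% of all windows. No motif of the 3 contains another, though neighbouring matches can share bases. A match counted anywhere in a window that a region touched, not only under the peak. The search covered 16 of the 352 ATF4 regions and 778 of the 6313 MYC regions, and no window lay on chromosome 8. The sequence under all other regions was not searched. These are matches of letters, not sites.

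On these promoter windows the ATF4 peak centres lay close to the element where it was present. At 12 of the 16 ATF4 regions on a promoter window a TGATGNAA match was present, and its middle lay a median of 7.5 bp from the region's centre (2.5 to 29 bp). For MYC, 190 of 778 regions on a window had a CACGTG match, at a median of 32.5 bp from the centre, and 118 of these were within 50 bp. The TGATGNAA matches in MYC windows lay a median of 79 bp from the MYC centre over 20 regions.

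The promoters of 9 genes were chosen by hand to show where the motifs lie under the peaks. All 9 hold a searched motif, so they do not show how often a peak has one. They are 4 genes with an ATF4 region at their start and no reproducible MYC region overlapping it, 3 genes with overlapping ATF4 and MYC regions at their start, and 2 genes with MYC and no ATF4. Each sequence runs 5′ to 3′ on the gene's strand from 250 bases before the start, is taken from RefSeq (GRCh38.p14), and has TGATGNAA and CACGTG matches on either strand in capitals. Positions count from the first transcribed base as 0.
FGF21: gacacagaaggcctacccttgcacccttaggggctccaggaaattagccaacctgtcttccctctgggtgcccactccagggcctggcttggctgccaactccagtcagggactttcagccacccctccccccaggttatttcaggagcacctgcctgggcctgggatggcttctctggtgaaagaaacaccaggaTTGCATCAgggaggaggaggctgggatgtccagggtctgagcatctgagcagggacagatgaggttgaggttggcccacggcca
CHAC1: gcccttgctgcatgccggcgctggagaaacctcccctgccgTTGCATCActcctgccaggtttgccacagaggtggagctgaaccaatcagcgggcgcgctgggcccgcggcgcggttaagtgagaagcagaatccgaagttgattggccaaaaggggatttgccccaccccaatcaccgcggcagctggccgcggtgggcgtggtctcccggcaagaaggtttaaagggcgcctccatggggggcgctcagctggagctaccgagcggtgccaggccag
ASNS: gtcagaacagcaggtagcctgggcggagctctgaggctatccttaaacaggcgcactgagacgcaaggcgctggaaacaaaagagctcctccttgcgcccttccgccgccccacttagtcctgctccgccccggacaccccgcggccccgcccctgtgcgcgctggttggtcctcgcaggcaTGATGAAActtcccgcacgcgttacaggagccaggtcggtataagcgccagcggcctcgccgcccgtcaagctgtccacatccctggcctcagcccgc
SLC1A5: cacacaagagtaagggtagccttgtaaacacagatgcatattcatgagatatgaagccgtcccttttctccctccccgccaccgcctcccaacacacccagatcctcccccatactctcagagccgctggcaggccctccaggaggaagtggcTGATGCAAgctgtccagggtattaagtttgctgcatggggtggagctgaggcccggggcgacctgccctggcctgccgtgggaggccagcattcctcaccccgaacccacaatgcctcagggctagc
MARS1: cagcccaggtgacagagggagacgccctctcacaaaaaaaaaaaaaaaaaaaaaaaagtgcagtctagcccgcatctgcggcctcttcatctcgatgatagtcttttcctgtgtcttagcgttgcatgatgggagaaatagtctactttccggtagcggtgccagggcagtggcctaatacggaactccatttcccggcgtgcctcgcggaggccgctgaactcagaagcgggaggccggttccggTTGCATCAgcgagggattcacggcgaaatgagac
NARS1: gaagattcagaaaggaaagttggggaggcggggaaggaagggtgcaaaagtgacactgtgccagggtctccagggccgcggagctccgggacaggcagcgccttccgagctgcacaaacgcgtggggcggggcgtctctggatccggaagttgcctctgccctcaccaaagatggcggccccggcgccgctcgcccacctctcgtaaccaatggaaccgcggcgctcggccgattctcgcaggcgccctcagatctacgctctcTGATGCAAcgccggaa
TBL1X: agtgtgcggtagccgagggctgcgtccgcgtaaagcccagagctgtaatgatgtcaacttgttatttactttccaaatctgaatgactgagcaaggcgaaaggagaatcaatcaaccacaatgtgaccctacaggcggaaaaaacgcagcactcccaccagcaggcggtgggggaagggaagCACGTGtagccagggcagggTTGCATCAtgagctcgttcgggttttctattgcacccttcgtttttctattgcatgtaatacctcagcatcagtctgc
NAT10: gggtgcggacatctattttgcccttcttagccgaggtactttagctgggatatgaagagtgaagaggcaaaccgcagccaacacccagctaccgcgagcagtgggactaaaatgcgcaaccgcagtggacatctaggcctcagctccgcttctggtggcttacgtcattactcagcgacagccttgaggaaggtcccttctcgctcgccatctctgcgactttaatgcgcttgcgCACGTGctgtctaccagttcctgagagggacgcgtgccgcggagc
GNL3: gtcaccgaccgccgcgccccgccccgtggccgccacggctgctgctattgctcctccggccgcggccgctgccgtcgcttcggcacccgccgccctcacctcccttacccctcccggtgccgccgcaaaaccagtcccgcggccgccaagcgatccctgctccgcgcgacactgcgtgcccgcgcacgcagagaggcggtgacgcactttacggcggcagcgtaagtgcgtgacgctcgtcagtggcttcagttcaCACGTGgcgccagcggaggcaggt

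FGF21 (chr19:48755274-48755553, plus strand) encodes a hormone secreted under nutrient stress, and its element at -54 to -47 lay beside the ATF4 centre at -58. CHAC1 (chr15:40953221-40953500, plus strand) encodes a glutathione-degrading enzyme, with the element at -209 to -202 and the ATF4 centre at -180. ASNS (chr7:97872379-97872658, minus strand), the asparagine synthetase gene, had its element at -68 to -61 and the ATF4 centre at -61. SLC1A5 (chr19:46784785-46785064, minus strand), a glutamine importer, had them at -97 to -90 and -69. In each of these 4 chosen promoters the element was within the ATF4 peak. The windows on ATF4 regions at PCK2, PSAT1, ISL2 and LOC107984449 held no TGATGNAA. At PCK2, ISL2 and LOC107984449 the ATF4 centre lay before the window, at -307.5, -324.5 and -274. Most of the sequence under these regions was therefore not searched, and a missing match there is not an absence of the element. The PSAT1 region lay within its window.

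MARS1 (chr12:57487818-57488097, plus strand), the methionyl-tRNA synthetase gene, had the element across its start, at -4 to 3, with the ATF4 centre at -3 and the MYC centre at -56.5. NARS1 (chr18:57621807-57622086, minus strand), which charges asparagine tRNA, had the element at 14 to 21, the ATF4 centre at 37.5 and the MYC centre at 90.5. The promoter of TBL1X (chrX:9463045-9463324, plus strand), a subunit of a corepressor complex, was the 1 window of the 4 that held both motifs. There CACGTG lay at -68 to -63 and TGATGNAA at -48 to -41, with the MYC centre at -67 and the ATF4 centre at -62.5. The ATF4 centre was thus nearer to CACGTG, 3 bp from its middle, and the 2 ATF4 libraries differed by 32 bp. The centres do not assign the factors to separate motifs. NAT10 (chr11:34105379-34105658, plus strand), an RNA acetyltransferase of the nucleolus, had CACGTG at -15 to -10 and the MYC centre at 13. GNL3 (chr3:52685782-52686061, plus strand), which encodes nucleostemin, had CACGTG at 6 to 11 and the MYC centre at 62.

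MYC lay at the ends of genes more often than ATF4 did. A gene end means within 1000 bp of either end of an annotated protein-coding gene, because RefSeq start windows were at hand for only 79.1% of the 20033 genes. Of the peaks of each library, 6.06% and 8.34% were at a gene end for ATF4 and 24.4% and 27.7% for MYC. The groups did not overlap, with means of 7.20% ± 1.61 (SD, n = 2) for ATF4 and 26.03% ± 2.34 (SD, n = 2) for MYC. The difference of 18.8 percentage points had p = 0.333 when the library labels were permuted (exact, two-sided), the smallest p that 2 against 2 libraries allow.

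Among reproducible regions, 34 of 352 ATF4 regions were at a gene end (9.66%, exact 95% interval 6.78% to 13.2%) and 1755 of 6313 MYC regions (27.8%, 26.7% to 28.9%). These intervals, like those below, are Clopper-Pearson intervals and cover counting error only. Inside genes away from their ends the shares were close, 42.1% for ATF4 and 40.03% for MYC. ATF4 had the larger share far from genes: 13.9% of its regions were over 100 kb from any gene end against 6.64% for MYC, and its median distance to a gene end was 16738 bp against 9282 bp. Of the 65 shared regions, 10 were at a gene end (15.4%, 7.63% to 26.5%) and 33 inside a gene (50.8%).

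The side of the start also differed. With RefSeq starts, 30 ATF4 regions (8.52%) and 1571 MYC regions (24.9%) had their centre within 1000 bp of a start. Of the 30 ATF4 regions 21 lay upstream and 9 downstream, with a median position of -78 bp. The MYC regions were spread over both sides, 719 upstream and 851 downstream, with a median of 30.5 bp downstream. At gene ends, 376 of 1755 MYC regions (21.4%) and 5 of 34 ATF4 regions (14.7%) touched the ends of 2 or more genes.

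**Figure D1:**
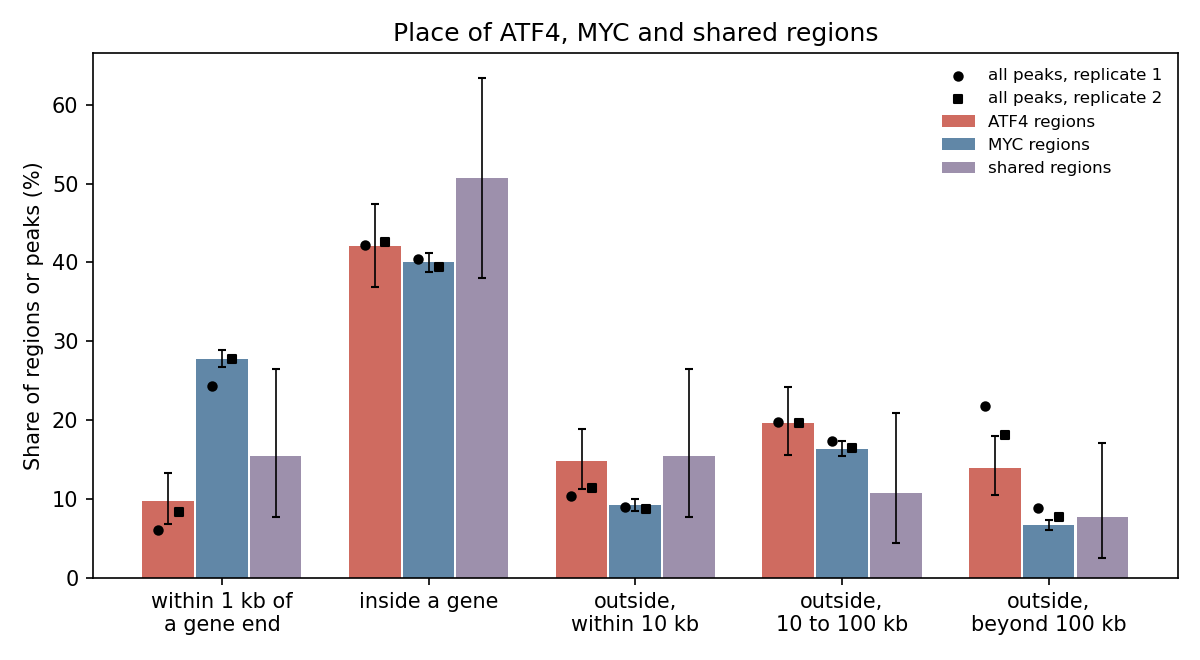
Share of regions or peaks (%, y axis) by place relative to protein-coding genes (x axis) for ATF4, MYC and shared regions: bars are reproducible regions with exact 95% intervals, and points are all peaks of each ATF4 or MYC library. At gene ends both MYC libraries (24.4% and 27.7%) sit above both ATF4 libraries (6.06% and 8.34%), while the shares inside genes are close.

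Most ATF4 regions did not lie on MYC regions. The 65 shared regions were 18.5% of the ATF4 regions (14.6% to 22.9%) and 1.03% of the MYC regions (0.796% to 1.31%). A further 90 ATF4 regions (25.6%) lay on a MYC peak of only 1 library, 84 of them in the deeper replicate 2 and 6 in replicate 1. The remaining 197 (56.0%) had no MYC peak in either library. Matched by replicate number, 9.92% of the ATF4 peaks of replicate 1 touched MYC (126 of 1270) and 12.7% of those of replicate 2 (283 of 2231).

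The overlap depended on which libraries defined the regions. Without MYC replicate 1 it was 42.3% of the ATF4 regions and without MYC replicate 2 it was 19.9%. Leaving out an ATF4 library made every peak of the other ATF4 library a region, so the base of the share grew. Without ATF4 replicate 1 the shared regions rose to 99, which was 4.44% of 2231. Without ATF4 replicate 2 they were 71, which was 5.59% of 1270. The overlap was 3.98% of the ATF4 regions when each MYC list was shortened to its strongest peaks to match the ATF4 list. No library left out made the overlap a majority of the ATF4 regions.

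Few ATF4 regions lay next to a MYC region without touching it. Of all 352, 19 (5.398%) had a MYC centre within 1000 bp with no overlap and 134 (38.1%) had none within 100 kb. The median distance to the nearest MYC region was 48892 bp over all ATF4 regions and 88072 bp over those without an overlap. By place, the shared part was 10 of 34 at gene ends (29.4%, 15.1% to 47.5%), 33 of 148 inside genes (22.3%) and 5 of 49 beyond 100 kb (10.2%, 3.40% to 22.2%). With the ATF4 regions split by tags into 4 classes of 88, from weakest to strongest, 12, 11, 22 and 20 regions were shared. In 4 such classes of MYC regions the shared part was between 0.887% and 1.14%. The intervals of the ATF4 classes and of the places overlap.

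Within shared regions the centres of both factors were offset. The ATF4 and MYC centres were a median of 72 bp apart in replicate 1 and 56 bp in replicate 2. At the same 65 regions the centres of the 2 ATF4 libraries were a median of 19 bp apart and those of the 2 MYC libraries 36 bp. Centres lay within 50 bp of each other at 38.5% and 41.5% of shared regions between factors, at 90.8% between ATF4 libraries and at 66.2% between MYC libraries. MYC lay on the same side of ATF4 in both replicates at 53 of 65 regions (81.5%). At 28 regions (43.1%) the offset also exceeded the distance between libraries of either factor in both replicates, with a median offset of 88.5 bp, and at 27 the mean offset did not exceed that distance.

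The widest offset was near ARHGAP23, a GTPase-activating protein gene, where the MYC centre minus the ATF4 centre was -166 and -270 bp. At STK40, a pseudokinase gene, it was 205 and 187 bp, while the libraries of a factor differed by 3 bp (ATF4) and 21 bp (MYC). The next widest mean offsets were 142 bp near BTC, which encodes the growth factor betacellulin, 141.5 bp near GPATCH1 and 136.5 bp in STX8, a syntaxin of late endosomes. At STX8 and GPATCH1 the replicates gave nearly the same offset, -137 and -136 bp and -140 and -143 bp, whereas at BTC they gave 230 and 54 bp. The narrowest mean offsets were 5.5 bp in CDC42EP1, an effector of the GTPase CDC42, 9 bp in WDR20, 18.5 bp at TBL1X, 23 bp in AFF3 and 24 bp in RANBP2, a nuclear pore gene. At all 5 the mean offset did not exceed the distance between libraries of 1 factor.

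**Figure D2:**
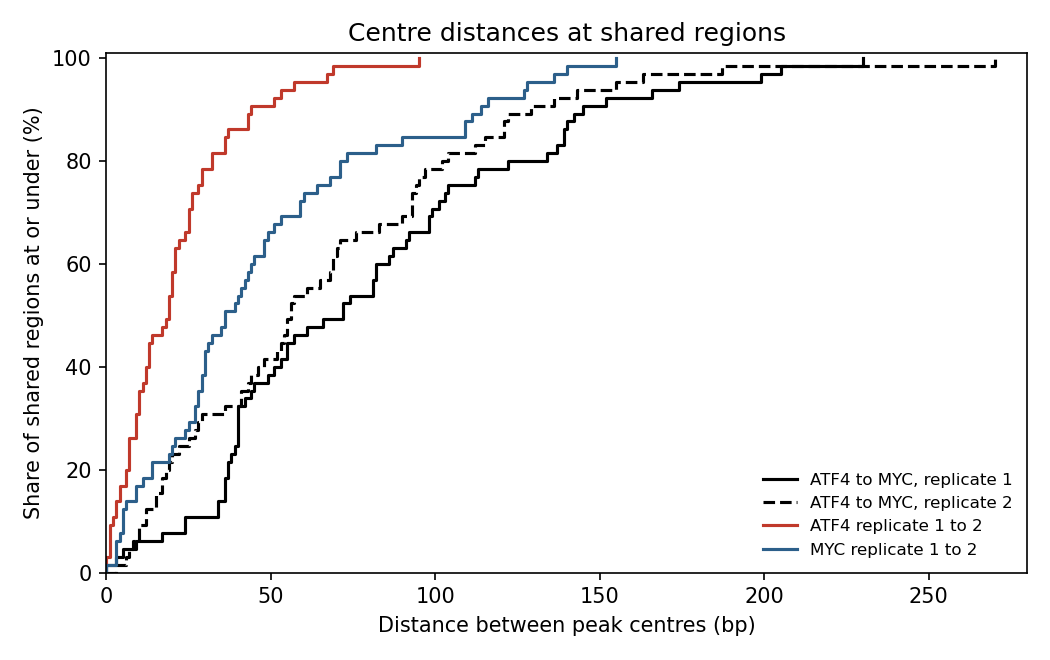
Distance between peak centres (bp, x axis) at the 65 shared regions, as the cumulative share of regions (%, y axis) between ATF4 and MYC in each replicate and between the 2 libraries of each factor. The ATF4 to MYC curves (medians 72 and 56 bp) lie to the right of the curves between libraries of 1 factor (19 and 36 bp).

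ATF4 peaks of 5 to 40 tags were more focused than MYC peaks of like strength. The focus ratio is the share of a peak's tags that lie on the expected side of its centre on each strand, so that a value near 1 describes a sharp peak. Over peaks of 10 to 20 tags the library medians were 0.882 and 0.871 for ATF4 and 0.788 and 0.769 for MYC. Both ATF4 values lay above both MYC values, and the difference of MYC minus ATF4 was -0.0980 (p = 0.333, exact two-sided permutation of the libraries, the smallest possible). Under 5 tags, where 678 of 1270 and 1765 of 2231 ATF4 peaks lay, the libraries of both factors overlapped. The medians there were 0.765 and 0.733 for ATF4 and 0.750 and 0.707 for MYC. Over all peaks the medians were 0.786 and 0.750 for ATF4 and 0.750 and 0.725 for MYC, a difference of -0.0305 (p = 0.667, the same exact test). With the MYC lists shortened to the length of the ATF4 lists the direction over all peaks turned, to 0.0150 (p = 1, exact permutation test).

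At reproducible regions the ATF4 medians were 0.842 and 0.823 and the MYC medians 0.750 and 0.747. The contrast held at the same DNA: at the 65 shared regions the medians were 0.833 and 0.824 for ATF4 and 0.741 and 0.750 for MYC. Both ATF4 values exceeded both MYC values at 36 of these regions (55.4%), both MYC values exceeded both ATF4 values at 2 (3.08%), and at 27 they overlapped. At STK40 the ratios were 0.935 and 0.904 for ATF4 and 0.846 and 0.785 for MYC, and at SLC7A11, the cystine importer, 0.900 and 0.903 for ATF4 and 0.917 and 0.804 for MYC, which overlap. The ATF4 regions with no MYC peak had medians of 0.842 and 0.816, close to those of shared regions. The authors' peak widths also differed, at 170 and 204 bp for ATF4 and 148 and 176 bp for MYC, and the part of this in the focus ratio was not tested.

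**Figure D3:**
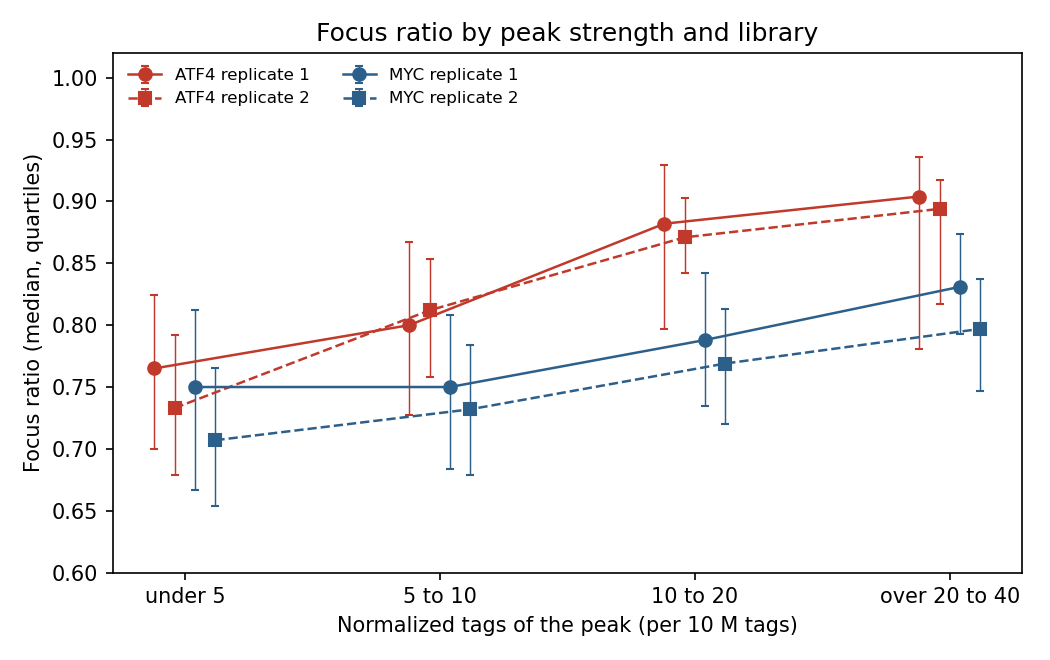
Median focus ratio (y axis, fraction of tags on the expected side of the centre) of each library in 4 classes of normalized tag count (x axis, per 10 M tags), with bars from the lower to the upper quartile of peaks. From 5 tags upward both ATF4 libraries sit above both MYC libraries, for example 0.882 and 0.871 against 0.788 and 0.769 at 10 to 20 tags.

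Strength in one list said little about strength in the other. Each peak was ranked by tags within its own library, as a percentile of that list, and the percentiles of both libraries were averaged. Shared regions had a median ATF4 percentile of 86.2, ATF4 regions on a MYC peak of 1 library 85.9 and those with no MYC peak 79.0. In the MYC lists, shared regions had a median percentile of 71.0 and MYC regions with no ATF4 peak 69.5. Across the 65 shared regions the Spearman correlation of the ATF4 and MYC percentiles was -0.00109, against 0.765 between the ATF4 libraries and 0.757 between the MYC libraries. These describe regions in lists that hold called peaks only, and the deeper list of each factor comes from the same replicate number. Of the 65 regions, 23 were above percentile 75 in both lists, 25 in the ATF4 list only, 6 in the MYC list only and 11 in neither.

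Among the 10 shared regions ranked highest in both, NRSN2, a gene for a neuronal vesicle protein, was nearest to the first, 7733 bp away (chromosome 20, 362493 to 362697), with 15.2 and 15.7 ATF4 tags and 15.2 and 24.9 MYC tags. The second lay inside TBC1D16, a Rab GTPase-activating protein gene, with 33.7 and 34.4 ATF4 tags and 9.98 and 22.6 MYC tags. STK40 had 17.2 and 19.1 ATF4 tags and 11.4 and 20.4 MYC tags at 719 bp from its end. At EIF4EBP1, which encodes a translation repressor that binds the cap-binding protein, ATF4 had 12 and 19.7 tags and the overlapping MYC region 11.9 and 23.9. Others were in CEP112, COL4A2 and POFUT1, at TBL1X and 105954 bp from SLC45A1. Of the 10, EIF4EBP1, STK40 and TBL1X were at a gene end, where 15.4% of all shared regions lay.

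The strongest ATF4 region with no overlapping MYC peak was 180 bp from CHAC1, with 28.5 and 24.3 tags. Next came a region 140458 bp from VEGFA with 25.7 and 26.1 tags, and one 167.5 bp from PCK2, mitochondrial phosphoenolpyruvate carboxykinase, with 23.7 and 18.3 tags, which also lies inside NRL. HSPA5, the main chaperone of the endoplasmic reticulum, had one at 2135 bp with 19.6 and 21.5 tags, and EREG, which encodes the growth factor epiregulin, one at 5899 bp with 21.6 and 18.1 tags. The other 5 lay 15179 bp from CYP2A7, inside GSE1, inside TEK, 4239 bp from CCR7 and 37514 bp from LOC124905368, and that last region was only 1.61- and 1.33-fold over the background library. CHAC1 and PCK2 were the 2 of these 10 regions that lay at a gene end.

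MYC regions with no ATF4 peak were ranked only where they lay at a gene end or inside a gene. The ATF4 regions above were ranked wherever they lay, so the places of both lists cannot be compared. The strongest such MYC regions were inside ELFN1, with 36.1 and 53.1 MYC tags, and inside CYTH1, a guanine nucleotide exchange factor gene, with 32.3 and 45.7. NME1, a nucleoside diphosphate kinase, had 27.1 and 43.3 MYC tags at 24.5 bp from its end, NAT10 had 26.6 and 39.7 at 13 bp, and NOLC1, a nucleolar chaperone, had 25.7 and 40.3 at 375.5 bp. The rest of the 10 lay inside TTC7A, HSPG2, LGR6, KCNG2 and NAPRT. All 10 had more tags in replicate 2 than in replicate 1.

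**Figure D4:**
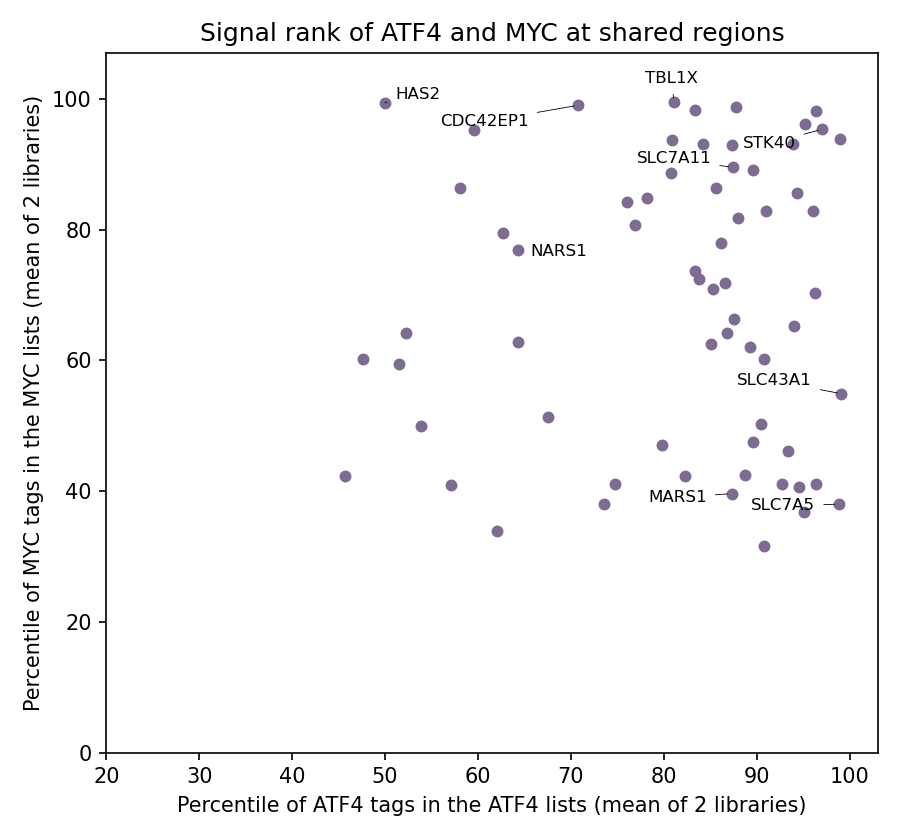
Percentile of ATF4 tags (x axis) against percentile of MYC tags (y axis), each within its own lists and averaged over 2 libraries, for the 65 shared regions. The points show no common order (Spearman -0.00109), with SLC7A5 and SLC43A1 high for ATF4 and lower for MYC and HAS2 and CDC42EP1 the reverse.

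The tags themselves were compared at the 65 shared regions with limma on log2(tags + 1), with Benjamini-Hochberg adjustment over these regions. Tags of different antibodies are not on 1 scale of occupancy, so a difference describes peak heights. MYC was higher at 7 regions (10.8%) and ATF4 at 5 (7.69%) at an adjusted p under 0.05, against 11 and 10 at an unadjusted p under 0.05, and the median difference was 0.01 on the log2 scale. Centring each library on its own median gave 8 and 9, which turns the balance of higher and lower calls. No region was called without ATF4 replicate 1 (limma, 3 and 5 at an unadjusted p under 0.05, smallest adjusted p 0.0983). The calls were 0 and 1 without ATF4 replicate 2, 10 and 6 without MYC replicate 1 and 4 and 4 without MYC replicate 2.

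The 5 regions higher for ATF4 included those inside SLC7A5 and SLC43A1. Inside SLC7A5, the large neutral amino acid exchanger, ATF4 had 33.3 and 28.3 tags and MYC 4.28 and 6.59, a difference of MYC minus ATF4 of -2.32 (SE 0.44, limma adjusted p = 2.19e-05). Inside SLC43A1, another large neutral amino acid carrier, ATF4 had 39.7 and 32.6 tags and MYC 4.75 and 10.2, a difference of -2.20 (SE 0.55, limma adjusted p = 0.00121). In both genes the ATF4 values were well above all MYC values. The other shared regions nearest to listed carriers did not pass the test, with differences of 0.90 at SLC38A1, 0.34 at SLC7A11, 0.25 at a second region 23063 bp from SLC7A5 and 0.04 in SLC3A2. The other 3 were in ATXN1 (-1.37), near ARHGAP23 (-1.29) and in EEIG1 (-1.27).

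The largest difference in favour of MYC was 263220 bp from HAS2, a hyaluronan synthase gene, where ATF4 had 4.41 and 5.83 tags and MYC 23.3 and 27.1 (2.10, SE 0.40, limma adjusted p = 2.19e-05). In CDC42EP1 ATF4 had 5.61 and 4.42 tags and MYC 20 and 25.1 (1.97, SE 0.39, limma adjusted p = 3.19e-05). TBL1X, at a gene end like 15.4% of all shared regions, had 5.61 and 7.84 ATF4 tags and 23.3 and 34.1 MYC tags (1.93, SE 0.46, limma adjusted p = 0.000892). Others were in COL4A2 (1.43), 41768 bp from GADD45G (1.43) and 46582 bp from RFX7 (1.04).

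Turning to genes, 39 of 20033 protein-coding genes (0.195%) had a reproducible ATF4 region at a gene end and 2027 (10.1%) had a MYC region. Both factors were at 16 genes, which is 41.0% of the ATF4 genes and 0.789% of the MYC genes. Counting a MYC peak of either library, 35 of the 39 ATF4 genes (89.7%) had one, against 32.5% of all genes, and the 4 without were ABCC11, CLDN7, PCK2 and TRERF1. At an end or inside the gene, ATF4 was at 186 genes (0.928%), MYC at 3787 (18.9%) and both at 99. The count of 16 was 36 without ATF4 replicate 1, 24 without ATF4 replicate 2, 35 without MYC replicate 1 and 18 without MYC replicate 2, and it was 7 within 500 bp of a gene end and 51 within 5000 bp.

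The 16 genes were ARHGAP9, BTF3L4, CEBPB, CHAC1, EIF4EBP1, IRAK1BP1, MARS1, NARS1, PSAT1, RACK1, SLC38A1, SLC38A2, SLC7A11, STK40, TBL1X and TXNDC12. ARHGAP9 and MARS1 have the same pair of regions between them, as do BTF3L4 and TXNDC12. At 12 of the 16 the ATF4 region overlapped a MYC region. At the other 4 the regions were apart, by 417.5 bp at CHAC1, 538 bp at PSAT1, 554.5 bp at SLC38A2 and 845 bp at RACK1.

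**Figure D5:**
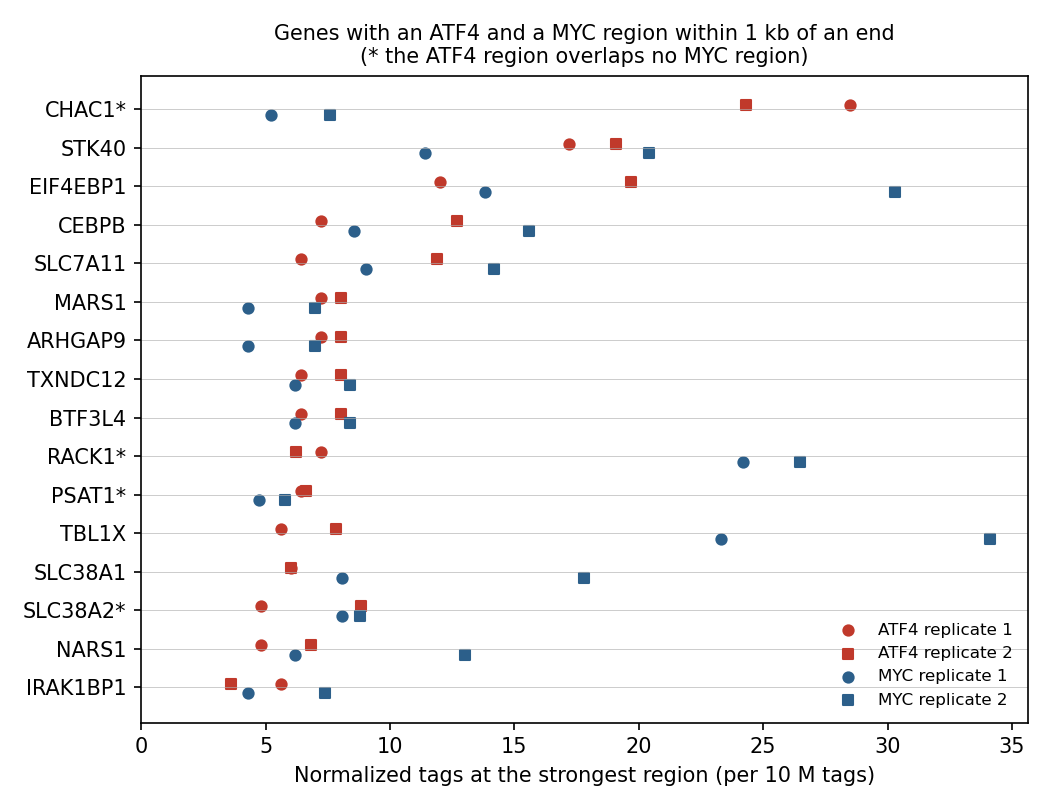
Normalized tag count (x axis, tags per 10 M) of the strongest ATF4 and MYC region in each library at the 16 genes with both factors within 1000 bp of a gene end (y axis), where a star marks an ATF4 region that overlaps no MYC region. ATF4 is above MYC in both libraries at CHAC1, where it has 28.5 and 24.3 tags against 5.23 and 7.58. The same holds by less at PSAT1 and at MARS1 and ARHGAP9, which have 1 pair of regions. MYC is above ATF4 in both libraries at TBL1X, RACK1 and SLC38A1.

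The gene lists here and below were chosen with earlier results of these data known. Their shares beside all genes are descriptions and not tests of enrichment. Stress response regulators were among the genes with ATF4. Of 20 such genes, 6 had an ATF4 region (30%, against 0.195% of all genes), 4 a MYC region (20%, against 10.1%) and 3 both. CEBPB, a dimer partner of ATF4, had 7.22 and 12.7 ATF4 tags and 8.56 and 15.6 MYC tags with centres 24 bp apart, so the factors overlapped in height and place. CHAC1 had 28.5 and 24.3 ATF4 tags and 5.23 and 7.58 MYC tags in regions that did not touch. At EIF4EBP1 the MYC region nearer the gene end had 13.8 and 30.3 tags.

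FGF21 had the tallest ATF4 region at a gene end, with 42.5 and 33.6 tags at 58 bp, which also lies at FUT1, and MYC had a peak there only in replicate 2, of 4.59 tags. VLDLR, a lipoprotein receptor, had 10.8 and 12.1 ATF4 tags, and PPP1R15B, a phosphatase subunit that reverses eIF2 phosphorylation, 4.41 and 7.03. Each of these 3 had a MYC peak in replicate 2 alone, of 6.19 tags at VLDLR and 9.18 at PPP1R15B. VEGFA, an angiogenic factor, had MYC at its end, with 4.28 and 6.19 tags, and no reproducible ATF4 region there. An ATF4 region by DDIT4, with 40.5 and 38.4 tags, fell just outside the 1000 bp limit. It is therefore not counted at a gene end, though its height was like that at FGF21.

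Of 17 amino acid synthesis genes, 5 had ATF4 (29.4%, against 0.195% of all genes), 3 had MYC (17.6%, against 10.1%) and 1, PSAT1, had both. PSAT1, the aminotransferase of serine synthesis, had 6.41 and 6.63 ATF4 tags and 4.75 and 5.79 MYC tags. PHGDH, the first enzyme of serine synthesis, had 8.02 and 11.9 ATF4 tags, SHMT2, which makes glycine in mitochondria, 14.8 and 13.1, and GPT2, an alanine aminotransferase, 4.41 and 7.23. MYC had a peak in replicate 2 alone at these 3, of 3.79, 9.18 and 5.39 tags.

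PCK2 had 23.7 and 18.3 ATF4 tags and no MYC peak in either library. PSPH, the phosphatase that completes serine synthesis, had MYC at 9.03 and 15.8 tags, with no ATF4 region. In the serine pathway the reproducible regions were those of ATF4 at PHGDH, of both factors at PSAT1 and of MYC at PSPH. Inside their genes ATF4 also lay at ASNS, with 14.0 and 15.3 tags at 61 bp from its RefSeq start, and at ASS1, the argininosuccinate synthase gene, with 8.42 and 7.64 tags.

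Of 10 folate and one-carbon genes, ATF4 was at MTHFD2 and SHMT2 (20%, against 0.195% of all genes). Reproducible MYC regions were at MAT2A, MTHFD1 and TYMS (30%, against 10.1%). MTHFD2, the mitochondrial folate dehydrogenase, had 4.41 and 9.44 ATF4 tags, while MTHFD1, its cytosolic relative, had 10.9 and 16.8 MYC tags. TYMS, thymidylate synthase, had 5.70 and 10.8 MYC tags and MAT2A, which makes S-adenosylmethionine, 8.56 and 12. MYC also had a peak in replicate 2 alone at both ATF4 genes, of 6.59 tags at MTHFD2 and 9.18 at SHMT2.

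Of 15 amino acid carriers, 3 had ATF4 (20%, against 0.195% of all genes), 4 had MYC (26.7%, against 10.1%) and 3 had both. SLC7A11 had 6.41 and 11.9 ATF4 tags and 9.03 and 14.2 MYC tags, SLC38A1, a glutamine importer, 6.01 and 6.03 against 8.08 and 17.8, and SLC38A2, a related neutral amino acid importer, 4.81 and 8.84 against 8.08 and 8.78. SLC3A2, the heavy chain that partners SLC7A5 and SLC7A11, had MYC at its end with 20 and 25.1 tags. ATF4 lay inside it, 33 bp from a RefSeq start, with 6.81 and 10.4 tags, over a second MYC region with 7.61 and 9.98. Counting ATF4 regions inside genes as well, 7 of the 15 carriers had one, against 0.928% of all genes. Among them was SLC1A5 with 11.2 and 16.7 tags at 69 bp from its start.

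Aminoacyl-tRNA synthetases, which charge tRNAs with amino acids, showed both patterns. Of 20 cytosolic synthetases, 4 had ATF4 (20%, against 0.195% of all genes), 6 had MYC (30%, against 10.1%) and 2 had both. MARS1 had 7.22 and 8.04 ATF4 tags and 4.28 and 6.99 MYC tags, and NARS1 4.81 and 6.83 against 6.18 and 13.0. YARS1 had ATF4 with 6.81 and 9.44 tags, in a region that also lies at S100PBP, and MYC only in replicate 2 with 10.2. IARS1 had ATF4 with 8.82 and 11.3 tags, and MYC peaks of 9.51 and 24.9 tags that did not overlap each other and so made no reproducible region. MYC without ATF4 was at FARSB (13.8 and 29.7 tags), KARS1 (9.98 and 16.6) and SARS1 (4.28 and 4.19), among others. GARS1 had ATF4 inside the gene, with 6.81 and 10.2 tags.

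Of 20 nucleolar genes, 14 had a MYC region (70.0%, against 10.1% of all genes) and none an ATF4 region, at a gene end or inside. NAT10 and NOLC1 were the tallest, followed by NOP16, a nucleolar assembly protein, with 22.8 and 33.7 MYC tags and GNL3 with 18.1 and 25.3. The RNA polymerase I subunit genes POLR1A, POLR1B and POLR1C had 9.51 and 14.2, 13.3 and 26.9, and 12.8 and 24.3 MYC tags. NCL, which encodes nucleolin, had 8.08 and 17.6. Of 16 translation factors, 8 had MYC (50.0%, against 10.1% of all genes) and none had ATF4 at a gene end. EIF4B was tallest at 18.1 and 28.5, and EIF4E, the cap-binding protein, had 6.18 and 18.2. ATF4 lay inside EEF1E1, a synthetase complex scaffold, with 4.81 and 5.02 tags.

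Among nucleotide and energy genes, MYC was at 4 of 18 nucleotide and polyamine genes (GART, NME1, SRM and UMPS), or 22.2%. It was at 5 of 16 glycolysis genes (ENO1, GAPDH, HK2, LDHA and LDHB), or 31.25%, against 10.1% of all genes. ATF4 was at none of either list. LDHB, a lactate dehydrogenase subunit, had 13.8 and 31.7 MYC tags and ENO1, enolase, 12.4 and 23.9. Of 13 genes of the MYC and MAX network, MAX (6.65 and 10.8) and MXD1 (9.51 and 15.8) had MYC, a share of 15.4% that is near the 10.1% of all genes. An ATF4 region with 7.22 and 8.04 tags lay inside the MYC gene itself, but it was only 1.95- and 1.83-fold over the background library, so it is uncertain. Because ATF4 was at 0.195% of all genes, a count of 0 in lists of this size is near the background.

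Markers of intestinal epithelium, the origin of the line, and of blood and of fibroblasts and neurons formed 3 lists of 12 genes. No marker had an ATF4 region at an end or inside, and MYC was at the end of 1 gene of each list (8.33%, near the background of 10.1%), the intestinal regulator CDX2 (5.23 and 4.99 tags), CD8A (13.3 and 24.1) and RBFOX3 (4.75 and 6.39). Counted at an end or inside, MYC was at 4 intestinal, 1 blood and 2 fibroblast and neuron markers, against 18.9% of all genes. Expression was not measured, so the cell type could not be checked by its markers.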

How the data were processed

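Peaks had been called in every library separately. Per the submitters' processing notes the tools were Bowtie 0.12.9 and HOMER and the build hg38, with no settings, and per the file headers the lists are HOMER findPeaks output. The authors' normalized tag count is a signal per 10 M tags of the library. Deposited beside it are the focus ratio, a fraction from 0 to 1, a peak score, the fold over a background library (not named in the headers) and its p-value. Per the file headers, total tags are a raw count in replicate 1 and a signal scaled to the background in replicate 2. The score, fold and p-value are the authors' own and were used only to describe or filter peaks. Library depth was taken from the ratio of total to normalized tags in replicate 1 and from the spacing of low normalized values in replicate 2.

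Groups and replicate numbers came from the sample titles. The members and gene lists were chosen with earlier results of these data known. Regions were annotated to protein-coding genes and starts of GRCh38.p14. The starts covered 79.1% of the genes, under the 80% set for using them, so either end of a gene was used. Libraries were compared by exact permutation, shared regions by limma 3.58.1 (R 4.3.3) with a trend on log2(tags + 1), a scale that understates differences of weak peaks, and shares by exact 95% binomial intervals. Regions are not replicates and were not tested as such. Scripts used Python 3.11.15, pandas 2.3.3, numpy 2.4.6 and scipy 1.17.1, and the limma step was tested on simulated data.

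Named were all genes with both factors at an end, the 10 shared regions ranked highest in both lists and the 10 tallest ATF4 regions without MYC. Also named were the 10 tallest MYC regions at or inside a gene without ATF4 and the 5 largest differences each way. The 5 widest and narrowest offsets and the listed genes with ATF4 were named too. Other listed genes were named after their MYC values were seen. The printed promoters were chosen by hand as examples. The alternatives were other windows, overlaps, peak minima, list lengths, pseudocounts, centring, a replicate block and leaving out each library. The ATF4 lists of control cells were not used here. Some named items are not reported here.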

Additional observations from a re-analysis of the deposited data

How the results depend on the processing

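The shift of MYC towards gene ends kept its direction under every alternative run, from 14.5 percentage points with a 500 bp window to 23.2 with shortened MYC lists. The shared part of the ATF4 regions was 15.9% when an overlap of at least 50% of the shorter region was asked for and 14.5% with centres within 100 bp. It was 3.98% (14 regions) with the MYC lists shortened to the length of the ATF4 lists. With a MYC library left out it was 42.3% or 19.9%. With an ATF4 library left out it was 4.44% or 5.59% of a longer list of ATF4 regions, while the shared regions numbered 99 or 71. With the shortened lists the median MYC percentile of shared regions was 95.7, the genes with both factors were 4 against 16, and the focus ratio difference turned to 0.0150. The genes with both factors were 7 with a window of 500 bp and 51 with 5000 bp, and 18 to 36 when a library was left out. The centre distance, as the mean of both replicates, had a median of 64 bp, and 82.5 bp over the 84 ATF4 regions with a MYC centre within 1000 bp.

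With the replicate block, the limma test at shared regions called 11 regions higher for MYC and 9 for ATF4, against 7 and 5 without it, and the focus ratio difference stayed at -0.0305. Same-numbered libraries deviated together only weakly (Pearson 0.17 across the 65 regions, which are not independent), and the labels do not say that a number marks a shared batch. Centring on library medians called 9 regions for ATF4, and leaving out a library gave 0 to 10 for MYC and 0 to 6 for ATF4. Of 99 values of single regions under the alternatives, 77 kept their side of the threshold, 22 lost it and 0 changed sign. The 2 libraries per factor allow no p under 0.33 in a permutation test, and the peak lists hold no signal below the callers' threshold, so a missing peak is not an absence of binding.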
